A study of Mus musculus with 6 samples.

Results

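The RNA levels of 37 genes of DNA damage signalling and core DNA repair were compared in the prostates of mice that differed in their Trp53 genotype. The genes were taken by symbol, and each symbol belonged to 1 of the 47719 gene identifiers measured. They comprised 4 damage kinases, 4 damage mediators, 5 genes of homologous recombination and break sensing, 5 of end joining, 9 of base excision and single-strand break repair, 2 of mismatch repair, 5 of nucleotide excision repair and 3 of the Fanconi pathway. Messenger RNA libraries prepared from total prostate RNA were sequenced for 6 B6.129S4-Trp53tm3.1Tyj/J mice of about 3 months. Of these mice 2 were wildtype for Trp53 (mice 39 and 41). For the Trp53 R270H mutation 2 were heterozygous (mice 37 and 40) and 2 homozygous (mice 47 and 49). Every mouse had received 5 Gy of whole body irradiation and was sampled 6 h later, and no unirradiated mouse was analysed here, so each value below is a level after irradiation and the response to irradiation itself could not be measured. Each library came from the whole prostate of a single animal. In such bulk tissue, fewer cells of a type and less RNA per cell cannot be told apart.

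When DNA is broken, the kinases ATM and ATR are activated at the lesion and phosphorylate the histone H2AX, mediator proteins and the checkpoint kinases CHEK1 and CHEK2, which together with p53 halt the cell cycle. Breaks are rejoined by end joining or, where a sister chromatid is available, by homologous recombination, whereas damaged bases, mispaired bases, bulky adducts and interstrand crosslinks are handled by base excision, mismatch, nucleotide excision and Fanconi repair. Much of this machinery is regulated on the protein, by phosphorylation, recruitment and turnover, and RNA levels report only on the supply of transcripts.

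The genotypes were separated by transcripts that p53 is known to induce. Cdkn1a, the p53-induced inhibitor of cyclin-dependent kinases, measured 109 and 101 FPKM (fragments mapped to a gene, scaled to its transcript length and to all mapped fragments) in wildtype mice, 40.5 and 41.4 in heterozygotes and 6.70 and 6.17 in homozygotes. It fell by 4.005 on the log2 scale in homozygous against wildtype mice (limma, adjusted p = 0.00075). In that comparison 4 of the 4 p53 targets examined were lower at an adjusted p under 0.05 (0.384% of all tested genes passed it). This short list was chosen with earlier results of these data known. The 6 libraries held between 0.785 and 1.07 times the fragments of mouse 39, with 13452 to 13827 genes at 1 FPKM or more. Homozygous mouse 47 stood apart from the others, with Pearson's r across genes of 0.892 to 0.925 against each of them. In that mouse Pbsn, the prostate secretory gene probasin, was at 257 FPKM against 7329 to 11512 in the other 5 mice, and Svs6 of the seminal vesicle was at 26147 against 28.6 to 1021 FPKM. The seminal vesicle genes Svs2, Svs4 and Svs5 were listed at 0 in mouse 47, and Svs2 also in mouse 49. Wildtype mouse 39 stood apart in the same genes, since its 6 seminal vesicle markers summed to 3363.5 FPKM against 30292 to 53789 in the other 5 mice. The 11 prostate epithelium markers summed to 12772 and 13093 FPKM in wildtype mice, 9787 and 9393 in heterozygotes and 1253 and 8468 in homozygotes, so the sum was lower in each mutant genotype and lowest in mouse 47. Pbsn alone made up most of this sum in every mouse except mouse 47. Of these 11 markers 4 were lower in homozygous than in wildtype mice at an unadjusted p under 0.05 (9.32% of all tested genes). Ordered downward by the number of R270H alleles were 3 of them (4.98% of all tested genes). The 10 skeletal muscle markers summed to 1517 and 2234 FPKM in wildtype, 4269 and 4512 in heterozygotes and 5183 and 4551 in homozygotes, and 9 of 10 were higher than in wildtype mice at an unadjusted p under 0.05 in both mutant genotypes. Among all tested genes 4.66% were higher at that threshold in heterozygous and 8.65% in homozygous mice.

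All 37 genes had a value in every mouse, and their mean levels spanned a 204-fold range, from 0.146 FPKM for Fanci to 29.8 FPKM for Polb. The mean was under 1 FPKM for 4 genes (Brca1, Palb2, Fancd2 and Fanci), between 1 and 5 for 12, between 5 and 10 for 11, and 10 or more for 10. The other 33 genes passed the filter of a mean of at least 1 FPKM and were tested together with all 13818 genes that did so. The summed level of all 37 genes was 286 and 327 FPKM in wildtype mice, 308 and 284 in heterozygotes and 310 and 281 in homozygotes, so the sums of the genotypes overlapped. Base excision genes made up the largest part of it in each mouse, at 112 to 132 FPKM.

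**Figure D1:**
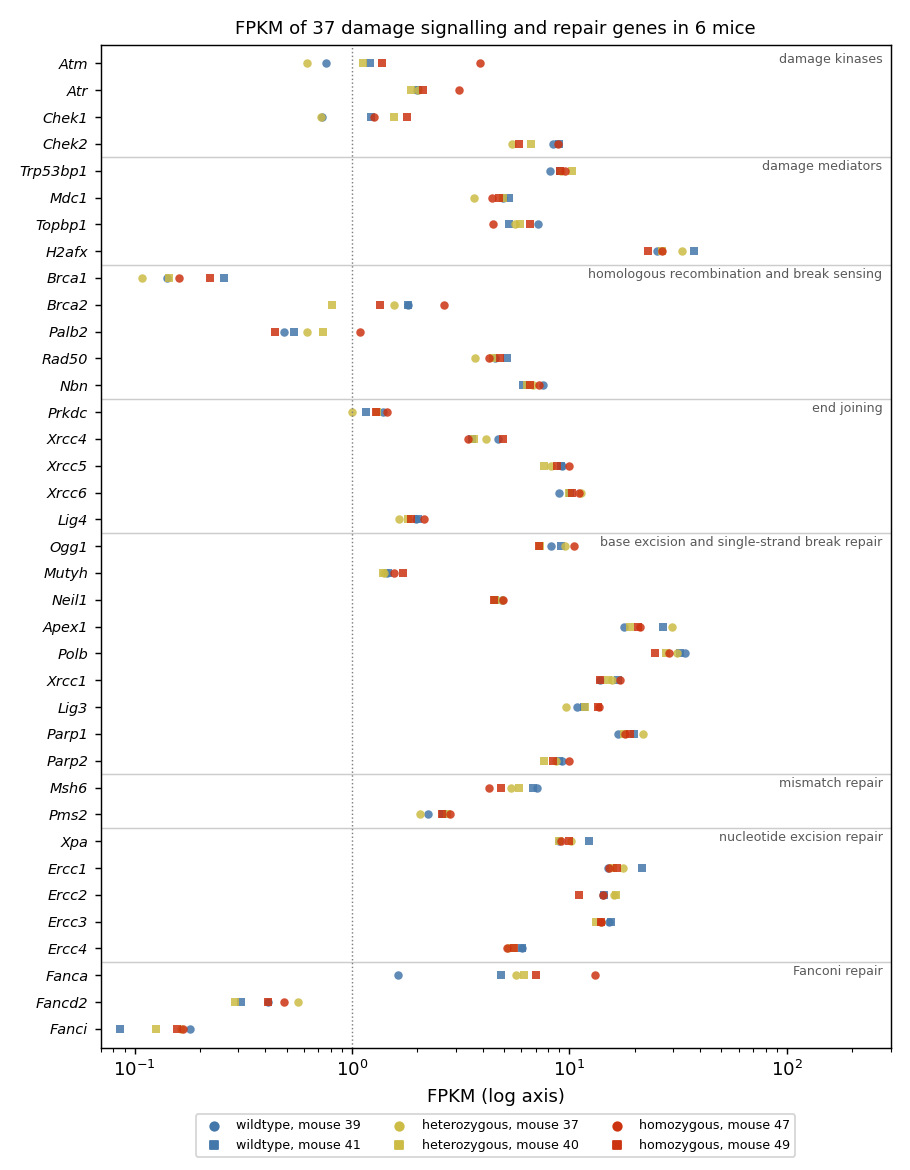
Level of each of the 37 genes in each of the 6 mice, on a log axis of FPKM, with the genes grouped by pathway and each point 1 mouse coloured by genotype. The points of most genes lie close together across genotypes, whereas those of Fanca spread from 1.63 FPKM in wildtype mouse 39 to 13.1 FPKM in homozygous mouse 47.

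None of the 33 tested genes passed a test of genotype after correction. With limma's moderated F-test and Benjamini-Hochberg adjustment 0 of 33 had an adjusted p under 0.05, where 0.101% of all tested genes did. At an unadjusted p under 0.05 the F-test found 2 of 33 genes, Msh6 and Fanca, where it found 11.5% of all tested genes, and both also differed by at least 1.5-fold, a criterion met by 8.31% of all tested genes. In homozygous against wildtype mice 0 of 33 passed the adjusted threshold (0.384% of all tested genes) and 2 the unadjusted one (18.0% of all tested genes), Fanca being higher (8.65% of all tested genes) and Msh6 lower (9.32%). In heterozygous against wildtype mice 0 of 33 passed either threshold, where 0.0% of all tested genes passed the adjusted and 6.87% the unadjusted one. Between homozygous and heterozygous mice 0 passed the adjusted threshold (0.0145% of all tested genes) and Lig3 alone, which was higher, the unadjusted one (6.39% of all tested genes in either direction and 1.97% higher).

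The differences of most of these genes were small. Their median log2 difference from wildtype was -0.08 in heterozygous and 0.01 in homozygous mice, beside -0.01 and -0.04 for all tested genes. Regardless of sign, the median size of the homozygous difference was 0.15 on the log2 scale for these genes and 0.23 for all tested genes, and the median size of the heterozygous difference was 0.15 for both. In homozygous mice 19 genes had a positive and 14 a negative difference from wildtype, whereas in heterozygous mice 8 were positive and 25 negative. The signs of all tested genes were not counted, and all these differences share the same 2 wildtype mice. These numbers therefore do not set the repair genes apart. The 95% interval of the homozygous difference lay within a 2-fold change in either direction for 29 of 33 genes, the exceptions being Atm, Chek1, Brca2 and Fanca, and within a 1.5-fold change for 14. For heterozygous mice these numbers were 28 and 13. For the other genes a change of 1.5-fold lay within the interval that 2 mice per genotype gave.

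**Figure D2:**
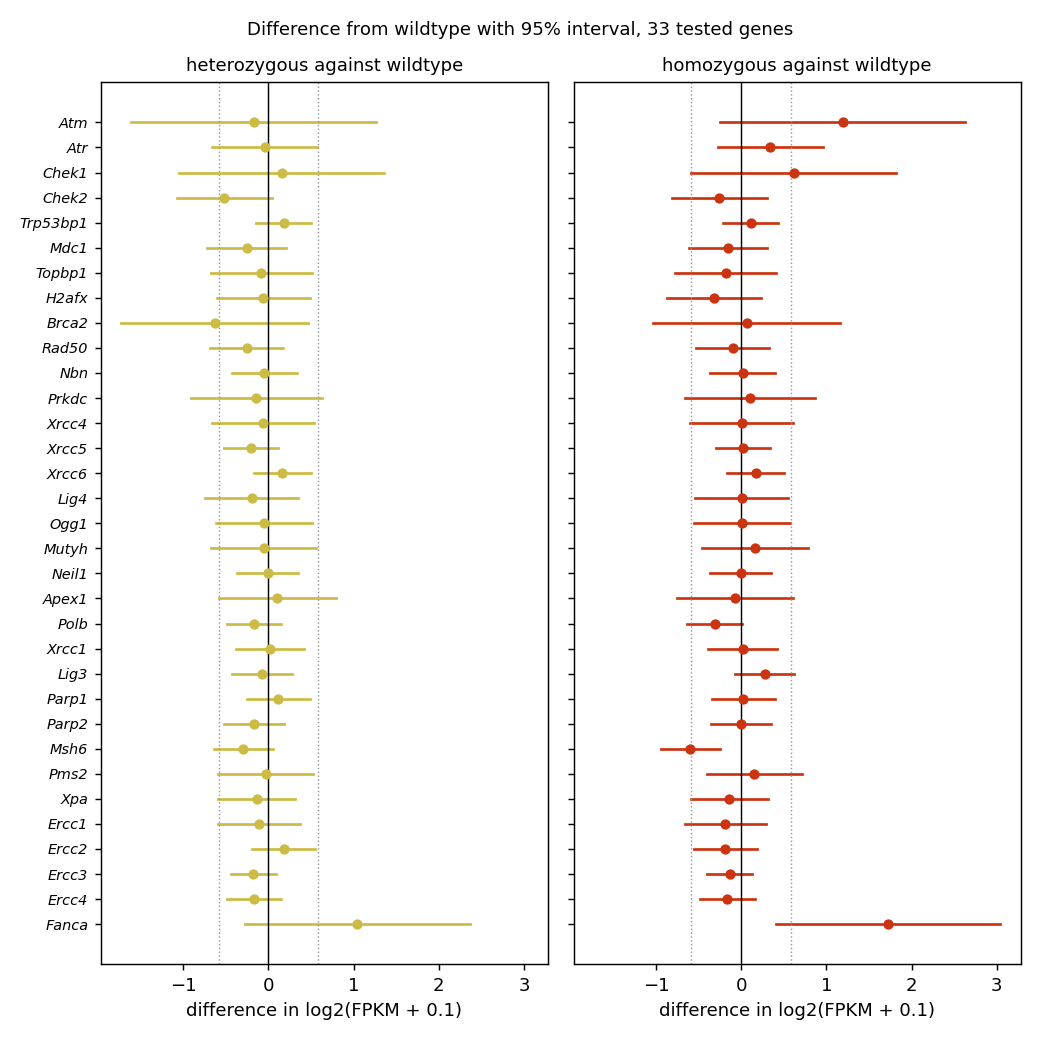
Log2 difference from wildtype of each of the 33 tested genes in heterozygous and homozygous mice, with 95% intervals from limma as bars. The intervals cross 0 in both comparisons for every gene other than Msh6 (-0.60) and Fanca (1.72) in homozygous mice.

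Without regard to a test, the 2 heterozygous values of 12 of 33 genes lay below both wildtype values (36.4% against 19.9% of all tested genes), and those of 3 genes, Trp53bp1, Ercc2 and Fanca, lay above (19.2% of all tested genes). The 12 were Chek2, Mdc1, Brca2, Rad50, Xrcc5, Lig4, Mutyh, Polb, Parp2, Msh6, Ercc3 and Ercc4, which belong to 7 of the 8 groups. In homozygous mice 7 genes lay above wildtype without overlap (21.3% of all tested genes) and 5 below (28.7% of all tested genes). The 5 were Mdc1, Polb, Msh6, Ercc3 and Ercc4, each of which also lay below wildtype in heterozygous mice, though both comparisons share the wildtype mice. Compared with heterozygous mice, homozygous values lay above without overlap for 8 genes (18.0% of all tested genes) and below for 2 (24.1% of all tested genes). Only Msh6 and Fanca were ordered by the number of R270H alleles in all 6 mice, Msh6 downward and Fanca upward (4.98% and 3.85% of all tested genes, 8.83% together).

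Msh6, whose product recognises base mismatches and small loops in newly copied DNA, measured 7.07 and 6.83 FPKM in wildtype mice, 5.41 and 5.89 in heterozygotes and 4.26 and 4.87 in homozygotes. The 3 genotypes did not overlap, and the means were 6.95 ± 0.168, 5.65 ± 0.338 and 4.56 ± 0.434 FPKM (SD, n = 2 each). The homozygous difference from wildtype was -0.60 on the log2 scale (SE 0.14, 95% interval -0.95 to -0.25), a level 1.51-fold lower, with an unadjusted p of 0.00593 and an adjusted p of 0.155 from limma. The heterozygous difference was -0.29 (SE 0.14, limma adjusted p = 0.827), or 49.3% of the homozygous one on the log2 scale. Without mouse 47 the homozygous difference was -0.50 (limma, unadjusted p = 0.0301, adjusted p = 0.392). The unadjusted p of limma's F-test for Msh6 was 0.0168 with all mice, and 0.0783, 0.0599 and 0.0631 without mice 39, 41 and 47, respectively. The summed prostate epithelium markers, mostly Pbsn outside mouse 47, were ordered by genotype in the same direction as Msh6, and their part in this difference was not tested. Msh6 lies on chromosome 17 from 87975062 to 87990892 on the plus strand of GRCm38, and 34 bp of its exons overlap the oppositely oriented Fbxo11, which differed by 0.02 on the log2 scale in homozygous mice. Pms2, the endonuclease subunit that acts after mismatch recognition, was the lower of the mismatch repair genes, at 2.24 and 2.61 FPKM in wildtype, 2.05 and 2.73 in heterozygotes and 2.81 and 2.59 in homozygotes. The values of Pms2 overlapped between all genotypes, with a homozygous difference of 0.15.

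Fanca, a subunit of the Fanconi core complex that ubiquitinates FANCD2 and FANCI at crosslinks, measured 1.63 and 4.86 FPKM in wildtype mice, 5.69 and 6.22 in heterozygotes and 13.1 and 7.02 in homozygotes. The genotypes again did not overlap, but on the log2 scale the wildtype mice differed more for Fanca than for any other of these genes. The means were 3.24 ± 2.28, 5.95 ± 0.374 and 10.04 ± 4.27 FPKM (SD, n = 2 each). The homozygous level was 3.30-fold the wildtype level, a log2 difference of 1.72 (SE 0.53, 95% interval 0.41 to 3.04, limma unadjusted p = 0.0189, adjusted p = 0.209). The heterozygous difference was 1.04 (SE 0.53, limma adjusted p = 0.847). The size depended on single mice. The homozygous difference was 1.28 without mouse 47 (limma, unadjusted p = 0.106), 0.97 without mouse 39 (unadjusted p = 0.0576) and 2.48 without mouse 41 (unadjusted p = 0.0013, adjusted p = 0.0752). Mouse 39, with the lowest Fanca value, was also the mouse with the lowest seminal vesicle markers, and mouse 47, with the highest, the mouse with the lowest prostate epithelium markers. Their part in the Fanca difference was not tested. The gene lies on chromosome 8 from 123268300 to 123318576 on the minus strand of GRCm38, and shares 920 bp of exon with Zfp276 on the opposite strand. Zfp276 did not follow the pattern of Fanca, with 10.3 and 9.69 FPKM in wildtype, 9.73 and 9.73 in heterozygotes and 8.41 and 7.32 in homozygotes. The substrates of the core complex were both under 1 FPKM, Fancd2 at 0.289 to 0.562 FPKM and Fanci at 0.0854 to 0.180 FPKM. Fanci, the lowest of all 37 genes, measured 0.180 and 0.0854 FPKM in wildtype, 0.164 and 0.125 in heterozygotes and 0.166 and 0.157 in homozygotes, so the mice of each mutant genotype lay between the wildtype mice.

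**Figure D3:**
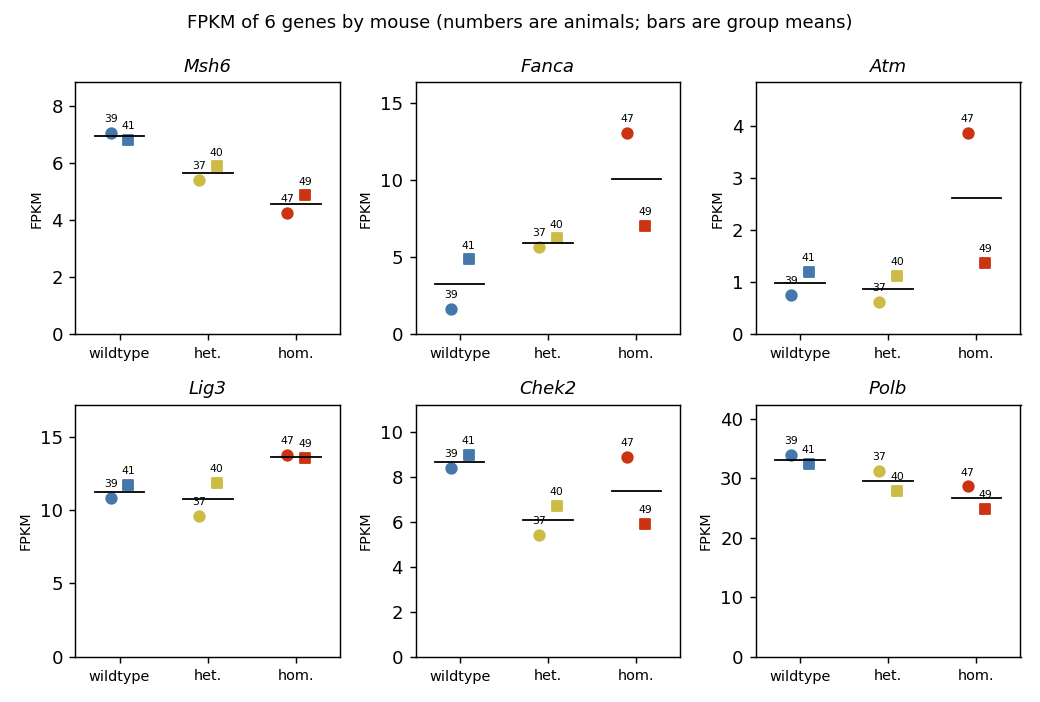
FPKM of Msh6, Fanca, Atm, Lig3, Chek2 and Polb in each mouse, with 1 panel per gene, each axis starting at 0, points for mice and a line for the mean of each genotype. Msh6 steps down and Fanca up with each R270H allele, and the high homozygous mean of Atm comes from mouse 47 at 3.87 FPKM.

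Msh6 and Fanca alone passed the unadjusted threshold in the F-test or in a comparison with wildtype mice. The 250 bases before their RefSeq transcription starts are therefore shown (RefSeq on GRCm38.p6, written 5′ to 3′ on the strand of the gene). Lig3, which passed only between homozygous and heterozygous mice, was not included. Msh6 corresponds to chr17:87974800-87975049 on the plus strand with 70.8% G and C, and Fanca to chr8:123318577-123318826 on the minus strand with 61.6%. Capitals mark matches on either strand to the GC box (GGGCGG), the CCAAT box (CCAAT) and, in Fanca only, the p53 decamer, the 10-base element of which p53 binds a pair.
Msh6: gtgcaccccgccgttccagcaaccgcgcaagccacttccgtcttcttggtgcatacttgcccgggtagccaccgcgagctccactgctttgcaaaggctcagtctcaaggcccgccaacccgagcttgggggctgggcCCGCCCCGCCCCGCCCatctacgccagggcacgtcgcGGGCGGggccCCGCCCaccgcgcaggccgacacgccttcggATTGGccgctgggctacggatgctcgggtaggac
Fanca: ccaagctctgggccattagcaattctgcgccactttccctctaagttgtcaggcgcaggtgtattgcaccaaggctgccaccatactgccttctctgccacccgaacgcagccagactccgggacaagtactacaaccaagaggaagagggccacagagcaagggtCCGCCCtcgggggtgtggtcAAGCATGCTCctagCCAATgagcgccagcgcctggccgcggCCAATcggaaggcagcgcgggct
The Msh6 sequence held 5 GC boxes and 1 reverse CCAAT box, and the Fanca sequence held 1 GC box, 2 CCAAT boxes and 1 p53 decamer, AAGCATGCTC. Among the 30 of 37 genes with a RefSeq window of 300 bases (250 before and 50 after the start), 2, Fanca and Neil1, held a p53 decamer (6.67% against 8.4% of the tested genes with a window), 21 a GC box (70.0% against 68.3%) and 17 a CCAAT box (56.7% against 42.0%). An E2F element (TTTCCCGC, TTTCGCGC, TTTGCCGC or TTTGGCGC, on either strand) stood in the window of 6 genes, Brca2, Chek2, Mdc1, Msh6, Topbp1 and Xrcc6 (20% against 4.39%). That of Msh6 lay after the start. The GC and CCAAT boxes of Msh6 and Fanca are thus found in most of these windows, and a match describes letters and not measured binding.

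No damage kinase passed a threshold with all 6 mice. Atm, the kinase activated by double-strand breaks, measured 0.759 and 1.204 FPKM in wildtype, 0.621 and 1.13 in heterozygotes and 3.87 and 1.38 in homozygotes. Homozygous values were above the others, but mouse 47 was at 2.81 times the highest of the other 5 mice. The homozygous difference was 1.19 on the log2 scale (95% interval -0.24 to 2.63, limma adjusted p = 0.342), and 0.48 without mouse 47. Atr, which responds to single-stranded DNA at stalled forks, was at 2.002 and 2.003 FPKM in wildtype, 2.012 and 1.87 in heterozygotes and 3.09 and 2.13 in homozygotes, and its homozygous difference was 0.34 with both homozygous mice and 0.09 without mouse 47. Chek1, the kinase downstream of ATR, was the lowest of the group, at 0.728 and 1.23 FPKM in wildtype, 0.721 and 1.56 in heterozygotes and 1.27 and 1.79 in homozygotes. Chek2, the kinase downstream of ATM, was the highest, at 8.37 and 8.95 FPKM in wildtype, 5.42 and 6.69 in heterozygotes and 8.86 and 5.89 in homozygotes. Both heterozygous mice and homozygous mouse 49 were below wildtype, whereas mouse 47 was not. The heterozygous difference of Chek2 was -0.52 (limma, unadjusted p = 0.0636, adjusted p = 0.774).

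None of the damage mediators passed a threshold. H2afx, which encodes the histone variant phosphorylated around breaks, was the highest, at 25.4 and 37.5 FPKM in wildtype, 32.8 and 26.7 in heterozygotes and 26.7 and 22.9 in homozygotes, and of the mutant mice only mouse 49 lay outside the range of the wildtype mice. Mdc1, the scaffold that binds phosphorylated H2AX, was the lowest, at 4.95 and 5.25 FPKM in wildtype, 3.65 and 4.94 in heterozygotes and 4.43 and 4.74 in homozygotes. All mutant values of Mdc1 lay below the wildtype values, mouse 40 only just (4.942 against 4.947 FPKM in mouse 39), and the homozygous difference was -0.15. Trp53bp1, which protects broken ends from resection, and Topbp1, the activator of ATR, had homozygous differences of 0.11 and -0.18.

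Of the genes of break repair, those of end joining were nearly level. Homozygous differences of the 5 genes lay between 0.01 and 0.17 on the log2 scale, and the 95% interval of each was within a 2-fold change in both mutant genotypes. The highest was Xrcc6, one of the Ku subunits that cap broken ends, at 8.93 and 10.02 FPKM in wildtype, 11.3 and 9.92 in heterozygotes and 11.0 and 10.3 in homozygotes. The lowest was Prkdc, the DNA-dependent kinase that Ku recruits, at 1.39 and 1.16 FPKM in wildtype, 0.995 and 1.301 in heterozygotes and 1.46 and 1.29 in homozygotes. Xrcc5, the other Ku subunit, and the ligation genes Lig4 and Xrcc4 had homozygous differences of 0.02, 0.01 and 0.01. In homologous recombination and break sensing, Nbn, of the complex that detects ends, was the highest, at 7.56 and 6.12 FPKM in wildtype, 6.79 and 6.38 in heterozygotes and 7.22 and 6.59 in homozygotes, and the mutant values all lay between the wildtype values. Its partner Rad50 had a homozygous difference of -0.10. Brca2, a gene of homologous recombination, varied more, with 1.81 and 1.81 FPKM in wildtype, 1.56 and 0.813 in heterozygotes and 2.66 and 1.34 in homozygotes. Brca1 was the lowest, at 0.141 and 0.259 FPKM in wildtype, 0.109 and 0.144 in heterozygotes and 0.160 and 0.222 in homozygotes, and Palb2, which joins BRCA1 to BRCA2, was at 0.441 to 1.09 FPKM. In a fit without the filter on low values the homozygous differences of Brca1, Palb2, Fancd2 and Fanci were -0.02, 0.39, 0.26 and 0.20, with limma adjusted p between 0.749 and 1.0.

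Base excision and single-strand break repair had the highest summed level of the 8 groups, from 9 genes. By the median level of its genes (11.9 FPKM) it stood below nucleotide excision repair (14.3 FPKM). The highest single gene was Polb. This gene, the polymerase that fills single-base gaps, was at 33.9 and 32.4 FPKM in wildtype, 31.2 and 27.8 in heterozygotes and 28.6 and 24.8 in homozygotes. Both mutant genotypes lay below wildtype, with a homozygous difference of -0.31 (limma, unadjusted p = 0.0528, adjusted p = 0.283). Lig3, the ligase that seals the gap with XRCC1, was at 10.8 and 11.7 FPKM in wildtype, 9.62 and 11.8 in heterozygotes and 13.7 and 13.6 in homozygotes. Homozygous mice were above all others, by 0.35 on the log2 scale against heterozygous mice (limma, unadjusted p = 0.0483, adjusted p = 0.707) and by 0.28 against wildtype mice (adjusted p = 0.358). Against heterozygous mice the difference was 0.34 without mouse 47 (limma, unadjusted p = 0.130), 0.36 without mouse 49 (unadjusted p = 0.112) and 0.20 without mouse 37 (unadjusted p = 0.235). The unadjusted p of Lig3 was also above 0.05 without mouse 39 or mouse 41 (limma, 0.0708 and 0.0697), with the same difference. The lowest of the group was Mutyh, the glycosylase that removes adenine opposite oxidised guanine, at 1.45 and 1.46 FPKM in wildtype, 1.40 and 1.39 in heterozygotes and 1.56 and 1.72 in homozygotes. The oxidised base glycosylases Ogg1 and Neil1, the endonuclease Apex1, the break sensors Parp1 and Parp2 and the scaffold Xrcc1 had homozygous differences between -0.07 and 0.03.

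All 5 genes of nucleotide excision repair had negative homozygous differences, but within a narrow range of -0.19 to -0.14 on the log2 scale, and none passed a threshold. Ercc1, of the nuclease that cuts 5′ of the lesion, was the highest, at 15.03 and 21.7 FPKM in wildtype, 17.6 and 15.9 in heterozygotes and 15.1 and 16.6 in homozygotes, and all mutant values lay between the wildtype values. Its partner Ercc4 was the lowest, at 6.04 and 6.03 FPKM in wildtype, 5.198 and 5.50 in heterozygotes and 5.19 and 5.58 in homozygotes, with both mutant genotypes below wildtype and overlapping each other. Ercc3, a helicase of TFIIH, also lay below wildtype in both mutant genotypes, with 15.2 and 15.6, 13.9 and 13.3, and 14.0 and 14.0 FPKM in the same order. Ercc2, the other TFIIH helicase, was at 14.2 and 14.4 FPKM in wildtype, 16.1 and 16.5 in heterozygotes and 14.3 and 11.1 in homozygotes, a homozygous to heterozygous difference of -0.37. The damage verifier Xpa had a homozygous difference of -0.14.

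Mouse 47 was above all the other mice for 13 of 33 genes and below them for 4, where 20.5% and 25.5% of all tested genes were above and below. The other 5 mice were above the rest for 2 to 7 genes each and below them for 1 to 9, with mouse 37 below for 9 and mouse 39 for 8. Among all tested genes these mice were above for 5.82% to 20.7% and below for 7.02% to 19.7%. The median distance of the 33 genes from the median of the remaining mice was 0.14 on the log2 scale for mouse 47. For the other mice it was 0.10 to 0.17. Without mouse 47 the unadjusted homozygous comparison was passed by Chek2, Ercc2, Msh6 and Polb, with all 4 lower than in wildtype mice, where 11.7% of all tested genes passed and 4.85% were lower. Their differences were -0.55, -0.37, -0.50 and -0.41 in that order, with limma adjusted p between 0.392 and 0.416. Of these only Msh6 also passed with both homozygous mice. The low prostate markers and the high Svs6 of mouse 47, and the muscle markers that were higher in both mutant genotypes, stood beside these differences, and their part in the result was not tested.

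**Figure D4:**
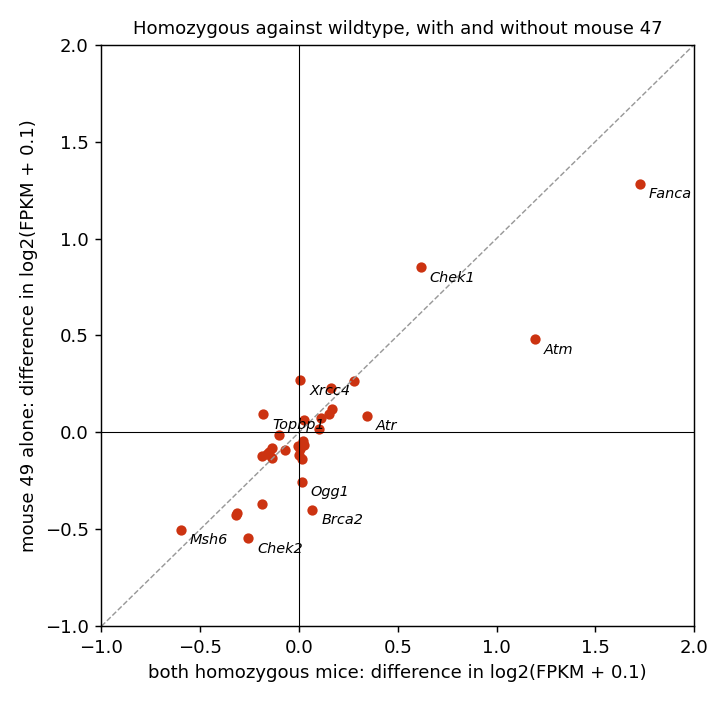
Homozygous to wildtype log2 difference of each of the 33 genes with both homozygous mice on the x axis and without mouse 47 on the y axis, with the diagonal marking equal values. Atm goes from 1.19 to 0.48 and Fanca from 1.72 to 1.28, and Msh6 stays low at -0.60 and -0.50.

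A wider list of 111 other repair and damage signalling genes, of which 90 were tested, was examined beside them. In the F-test and in each pairwise comparison 0 of 90 had an adjusted p under 0.05. At the unadjusted threshold 2 were higher and 7 lower in homozygous mice, where 8.65% and 9.32% of all tested genes were higher and lower. In heterozygous mice 1 was higher and 7 lower, where 4.66% and 2.21% of all tested genes were. The list had a median homozygous difference of -0.06, beside -0.04 for all tested genes. Its heterozygous differences were positive for 23 and negative for 67 genes, with a median of -0.09 beside -0.01 for all tested genes. No share of all tested genes stands beside these signs, and they rest on the same wildtype mice. The smallest p-values belonged to 4 genes. Mpg, an alkylated base glycosylase, was at 18.7 and 17.4 FPKM in wildtype, 14.5 and 14.0 in heterozygotes and 12.9 and 13.2 in homozygotes (log2 difference -0.46, limma adjusted p = 0.155). Ercc5, the nuclease that cuts 3′ of the lesion in nucleotide excision repair, was at 11.7 and 8.80, 6.84 and 7.14, and 6.19 and 6.499 FPKM in the same order (-0.67, limma adjusted p = 0.168). Both lay lower in each mutant genotype without overlap. Cdc25b, the phosphatase that restarts the cycle after a checkpoint, was at 3.31 and 5.34, 5.97 and 7.30, and 9.69 and 8.23 FPKM (1.07, limma adjusted p = 0.157). Msh3, whose product recognises larger loops in mismatch repair, was at 3.41 and 3.33, 3.30 and 3.29, and 5.09 and 4.47 FPKM (0.49, limma adjusted p = 0.213), so only its homozygous values stood above the others.

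Of the repair genes listed as regulated by p53, 1 of 7 passed the adjusted threshold in homozygous against wildtype mice, where 0.384% of all tested genes did. At the unadjusted threshold 2 of the 7 were lower, where 9.32% of all tested genes were, and the other 5 did not pass. The 7 homozygous differences were positive for 4 genes and negative for 3, with a median of 0.04, so the list did not fall as a group. Mgmt, which removes alkyl groups from guanine, was at 17.0 and 13.7 FPKM in wildtype, 7.80 and 6.28 in heterozygotes and 2.91 and 1.87 in homozygotes, and it fell by 2.66 on the log2 scale in homozygous mice (limma, adjusted p = 0.0322). Polk, a translesion polymerase, had a homozygous difference of -1.45 (limma, adjusted p = 0.110). Since several of the 37 genes are expressed most in dividing cells, 28 proliferation markers were also examined, of which 20 were tested. Their summed level was 82.2 to 94.0 FPKM in the 6 mice with a median homozygous difference of 0.01, and 1 passed the adjusted threshold, Rrm1 of ribonucleotide reductase, at 11.0 and 10.6 FPKM in wildtype, 6.09 and 6.16 in heterozygotes and 5.10 and 4.62 in homozygotes (-1.14, limma adjusted p = 0.0459).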

How the data were processed

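Prostate RNA of 6 irradiated mice was measured by stranded, paired-end sequencing of messenger RNA libraries. The authors aligned the reads to GRCm38 (mm10 in the submitters' processing notes) with HISAT, quantified transcripts with Cufflinks and Cuffnorm, and deposited a table of FPKM per gene for every mouse. The versions are not given in the sources used here. FPKM are not counts, and counting error is unknown. The ratios of the lowest values between mice gave relative depths. Here log2(FPKM + 0.1) of the 13818 genes with a mean of at least 1 FPKM was fitted by genotype with limma 3.58.1 in R 4.3.3 (lmFit, eBayes with trend), with Benjamini-Hochberg adjustment over all tested genes and a threshold of 0.05. Fold changes are on this scale, which understates those of low genes. Each mouse is 1 replicate, and no litter or batch is labelled. The 37 genes and the lists were chosen with earlier results of these data known, and the motif search after the values were seen. Values per mouse are given for genes that met any call rule, for the lowest and highest gene of each group, and for some others chosen after their values were seen; of the wider list, those with the smallest p. Positions come from GENCODE M21 and promoters from RefSeq. Pseudocounts of 0.01 and 1, no filter, a mean of at least 5 FPKM, quantile and median scaling, a prior without trend, a gene-by-gene F-test and leaving out each mouse were the alternatives. The fit was tested on simulated data.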

Additional observations from a re-analysis of the deposited data

How the results depend on the processing

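In the F-test and each pairwise comparison, 0 of these genes passed the adjusted threshold under every alternative run. With limma, 2 genes met the unadjusted F-test with at least a 1.5-fold difference, and 1 did so with a pseudocount of 1 or 0.01, without a filter, with a mean of at least 5 FPKM (21 genes tested), with quantile or median scaling, without the trend and with the F-test on each gene alone. Msh6, at 1.51-fold, fell under the fold criterion with a pseudocount of 1 and with median scaling. The unadjusted F-test without a fold criterion gave 2 genes (also 2, Ercc3 and Msh6, gene by gene), and 1 with a pseudocount of 0.01, without a filter, with a mean of at least 5 FPKM, with quantile normalization and without the trend, where the p of Fanca (0.0493) passed 0.05. The homozygous to heterozygous comparison gave 1 gene, 2 without a filter, with a mean of at least 5 FPKM or with quantile normalization, and 0 without the trend, where the unadjusted p of Lig3 was 0.0668. For the other changes the cause was not tested. Leaving out each mouse gave 0 to 3 genes for the F-test with the fold criterion, 0 to 4 for the F-test alone, 0 to 1 for heterozygous and 2 to 4 for homozygous against wildtype, 0 to 4 for homozygous against heterozygous and 2 to 4 ordered by allele number. Atm passed the F-test with the fold criterion when mouse 49 was left out, and the F-test of Fanca kept an unadjusted p under 0.05 only without mouse 41 or 49. In these fits a lone mouse is assumed to vary like the other genotypes. Order without overlap is also easier to meet when a genotype has a lone mouse. Of these fits, the share of all tested genes is given only for homozygous against wildtype mice without mouse 47. The other counts have no such share beside them, so a higher count does not set the repair genes apart. The homozygous difference of Msh6 lay between -0.69 and -0.50 and that of Fanca between 0.97 and 2.48 over all alternatives. Summing identifiers gave no value of its own, since each gene had 1. No paired analysis was possible because the genotypes share no animal numbers. With 2 mice per genotype and unknown counting error, values under 1 FPKM are the least certain.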
